A study of Mus musculus with 6 samples.

Results

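*Gdpd3*, a gene of chromosome 7, was chosen by its values in these mice, and *Ypel3*, *Mapk3*, *Tbx6* and *Ppp4c* were listed with it because they lie beside it. These 5 genes, of 54232 gene identifiers counted, were matched by symbol to Ensembl identifiers in the GENCODE M21 annotation, and 5 of 5 were found. Heart ventricle RNA was sequenced from 6 mice, 3 in the WD + Tributyrin group and 3 in the WD + Vehicle group. All were C57BL/6J mice of the WT genotype that had eaten western diet (WD) for 15 weeks when a treatment of 3 weeks began. Tributyrin, a triglyceride that releases butyrate, was given by needle feeding at 5 g/kg body weight. The vehicle is called PBS in the sample labels. The labels give strain and genotype alike for all 6 mice and nothing on litters or breeding, so whether the mice were alike at this locus is not known from them. The question asked was whether the spread of *Gdpd3* among the mice of a group is shared by the genes next to it.

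*Gdpd3* encodes a glycerophosphodiester phosphodiesterase of the endoplasmic reticulum that acts as a lysophospholipase D and forms lysophosphatidic acid from lysophospholipids. Its neighbours serve other pathways. *Mapk3* encodes ERK1, a terminal kinase of the RAS, RAF and MEK cascade. *Ypel3* encodes a small zinc-binding protein linked to growth arrest, *Tbx6* a T-box transcription factor of the paraxial mesoderm, and *Ppp4c* the catalytic subunit of protein phosphatase 4. Genes that lie close together on a chromosome can share regulatory elements and are mostly inherited together.

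In GRCm38, the build that mm10 in the submitters' processing notes stands for, *Mapk3* (ENSMUSG00000063065) spans chromosome 7 from 126759601 to 126765819 on the plus strand. *Gdpd3* (ENSMUSG00000030703) follows after 514 bases, from 126766334 to 126775649 on the same strand. *Ypel3* (ENSMUSG00000042675, 126776955 to 126780514, plus strand) begins 1305 bases after the end of *Gdpd3*, and *Tbx6* (ENSMUSG00000030699, 126781483 to 126785560, plus strand) 5833 bases after it. *Ppp4c* (ENSMUSG00000030697, 126785866 to 126792496) lies on the minus strand. A noncoding gene, *Gm9967*, runs against *Gdpd3* on the minus strand, and its exons cover 298 of the 2186 exonic bases of *Gdpd3*, or 13.6%. The strand setting of the counting is not given in the sources used here, so reads in that stretch cannot be assigned with certainty. *Gm9967* itself had 19, 8 and 4 reads in the vehicle libraries and 6, 3 and 1 in the Tributyrin libraries. No stretch of 50 bases, the read length, of the annotated *Gdpd3* transcripts occurs in the same orientation in a transcript of another gene (0 of 2280 stretches).

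The starts of the genes differ in sequence. RefSeq promoters (GRCm38.p6) were found for 4 of the 5 genes, all but *Mapk3*. The 250 bases before the RefSeq start are shown 5′ to 3′ so that the gene that varied can be set beside 3 of its neighbours. For *Gdpd3*, *Ypel3* and *Ppp4c* that start differs from the GENCODE position given above. The *Gdpd3* and *Ypel3* stretches therefore run past the gene starts given there, and the *Ppp4c* stretch lies a little apart from its gene. Capitals mark every CG dinucleotide.
Gdpd3 (chr7:126766164-126766413, plus strand): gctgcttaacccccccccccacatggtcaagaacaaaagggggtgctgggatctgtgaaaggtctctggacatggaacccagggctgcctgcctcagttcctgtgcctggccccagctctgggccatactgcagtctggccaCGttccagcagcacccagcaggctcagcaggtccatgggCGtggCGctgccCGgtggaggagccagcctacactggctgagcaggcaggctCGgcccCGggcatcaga
Ypel3 (chr7:126776713-126776962, plus strand): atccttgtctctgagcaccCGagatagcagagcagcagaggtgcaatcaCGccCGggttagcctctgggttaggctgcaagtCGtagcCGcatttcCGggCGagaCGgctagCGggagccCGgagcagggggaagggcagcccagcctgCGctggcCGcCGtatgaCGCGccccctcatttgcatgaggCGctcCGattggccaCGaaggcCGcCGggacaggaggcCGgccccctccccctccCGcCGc
Tbx6 (chr7:126781233-126781482, plus strand): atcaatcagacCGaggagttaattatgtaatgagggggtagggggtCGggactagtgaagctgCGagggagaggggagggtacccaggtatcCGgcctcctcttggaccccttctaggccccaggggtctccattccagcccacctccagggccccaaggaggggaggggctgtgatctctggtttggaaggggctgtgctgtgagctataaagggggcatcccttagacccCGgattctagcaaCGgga
Ppp4c (chr7:126792548-126792797, minus strand): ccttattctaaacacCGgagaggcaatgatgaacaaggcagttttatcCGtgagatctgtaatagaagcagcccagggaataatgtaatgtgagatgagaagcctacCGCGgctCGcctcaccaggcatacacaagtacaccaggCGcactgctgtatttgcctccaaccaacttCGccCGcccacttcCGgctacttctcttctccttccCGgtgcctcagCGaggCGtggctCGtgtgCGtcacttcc
The *Gdpd3* stretch holds 6 CG dinucleotides, which is the median over the 32851 promoters in the table, and the *Tbx6* stretch also holds 6. *Ypel3* holds 23 CG dinucleotides, more than 86.7% of those promoters, and *Ppp4c* holds 14. A second RefSeq start of *Ppp4c*, not shown, has 30. TATAAA, searched on both strands like the other motifs, occurs in the *Tbx6* stretch alone of these 4 and in 12.4% of all promoters. CCAAT occurs in the *Ypel3* stretch alone and in 33.9% of all. GGGCGG occurs in the *Ppp4c* stretch alone and in 32.7% of all. CACGTG, found in 6.02% of all promoters, is in none of the 4.

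The libraries held between 20369746 and 32734485 counts on genes, of which 23.6% to 28.8% were mitochondrial. The 7 ventricular cardiomyocyte markers were present in every mouse, with summed normalized read counts from 1389000 to 1426000 with vehicle and from 1335000 to 1448000 with Tributyrin. The 6 epithelial markers summed to at most 32.3. In every library *Xist* was at 6.2 or less and the Y-linked *Ddx3y* between 1802 and 2241. With edgeR's quasi-likelihood test over 14133 genes, 0 genes, or 0%, passed an FDR of 10%. An unadjusted p under 0.05 was found for 600 genes. At an FDR of 10% limma-voom called 0 genes and DESeq2 called 11. The labels number the samples but do not describe separate animals, so p-values measure the spread between these samples.

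*Gdpd3* stood at different levels in mice of the same group. The reads counted on it were 696, 895 and 279 in the vehicle mice and 371, 14 and 9 in the Tributyrin mice. Divided by the size factor of each library, these are normalized read counts of 723.4, 694.0 and 346.6 with vehicle and 346.9, 12.8 and 10.3 with Tributyrin. Vehicle mice 1 and 2 were high, vehicle mouse 3 and Tributyrin mouse 1 lay together at an intermediate level, and Tributyrin mice 2 and 3 were low.

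Counting error was small against these steps. As a share of the highest mouse, the vehicle values were 100%, 95.9% and 47.9%, and the Tributyrin values were 48.0%, 1.77% and 1.43%. The 95% Poisson intervals of the normalized read counts were 671 to 779 and 649 to 741 in vehicle mice 1 and 2. They were 307 to 390 in vehicle mouse 3 and 313 to 384 in Tributyrin mouse 1. In Tributyrin mice 2 and 3 they were 6.99 to 21.5 and 4.72 to 19.6. The intervals overlapped within each of these pairs of mice and not between the pairs. They cover counting error only.

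The mean of *Gdpd3* was 588 ± 210 normalized read counts (SD, n = 3) in the vehicle group. In the Tributyrin group it was 123 ± 194 (SD, n = 3). The groups overlapped, since the highest Tributyrin mouse lay at the level of the lowest vehicle mouse. By edgeR the log2 fold change was -2.23 with a standard error of 0.83, derived from the F statistic of its test. Without Tributyrin mouse 1 it was -5.64, and with any other mouse left out it lay between -2.49 and -1.68. With limma-voom it was -3.87, and with DESeq2 -2.25 with a standard error of 1.425. No p is given for *Gdpd3*, which was chosen by its values.

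The spread of *Gdpd3* was measured as the SD of log2(normalized read count + 0.5) and as the highest mouse over the lowest. With Tributyrin the SD was 2.81 and the highest mouse was 33.6 times the lowest. In that group 6 of 14133 genes, *Gdpd3* included, had an SD at least as large. With vehicle the SD was 0.60 and the ratio 2.09, and 648 genes had an SD at least as large. *Gdpd3* was chosen by its values, so these ranks only describe it. Each ratio rested on 1 mouse, since the SD was 0.21 without Tributyrin mouse 1 and 0.04 without vehicle mouse 3.

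**Figure D1:**
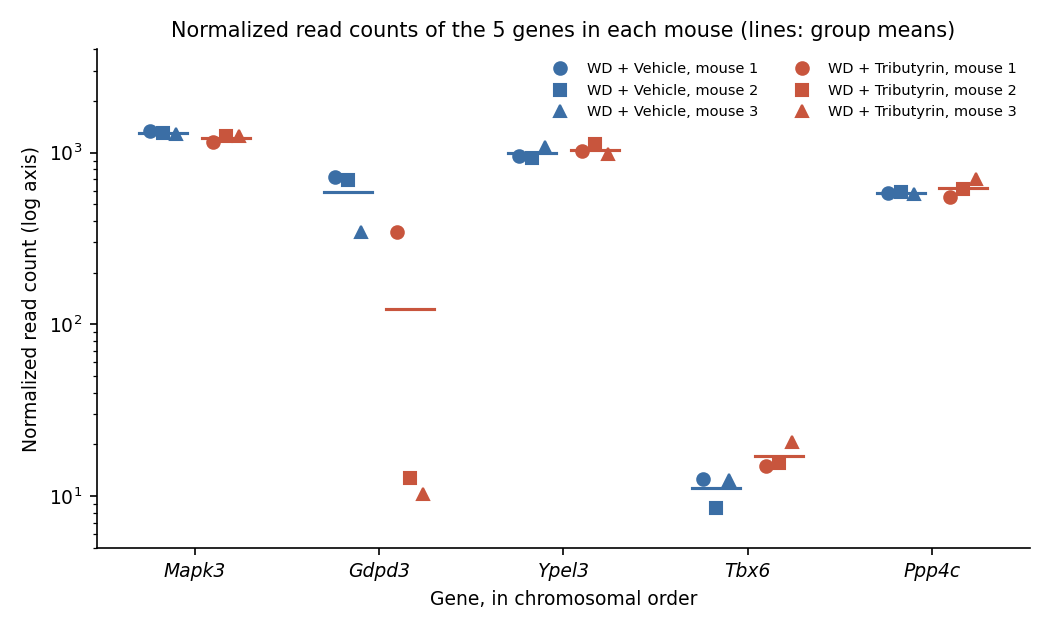
Normalized read counts (log axis) of the 5 genes, in chromosomal order, in each of the 6 mice. Blue marks WD + Vehicle, red WD + Tributyrin, the symbol shape the mouse number and the lines the group means. *Gdpd3* runs from 723.4 down to 10.3, while the other genes span less, *Tbx6* the most among them, from 8.5 to 20.6.

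*Mapk3*, which ends just before *Gdpd3* begins, was even among the mice. Its normalized read counts were 1328.4, 1301.9 and 1275.9 with vehicle and 1160.4, 1248.1 and 1257.2 with Tributyrin. The highest mouse was 1.04 times the lowest with vehicle and 1.08 times with Tributyrin. All 3 Tributyrin mice were below all 3 vehicle mice, and groups that do not overlap were found for 8.91% of all genes tested. Their difference was a log2 fold change of -0.09 (standard error 0.07), with an adjusted p of 0.999 in edgeR's quasi-likelihood test. The Tributyrin mice with the least *Gdpd3* had more *Mapk3* than Tributyrin mouse 1.

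*Ypel3*, the next gene after *Gdpd3*, had normalized read counts of 961.5, 935.1 and 1074.6 with vehicle and 1023.9, 1120.2 and 984.2 with Tributyrin. The groups overlapped, and of the Tributyrin mice low in *Gdpd3* one was the highest of all 6 for *Ypel3* and the other the lowest of its group. The highest mouse was 1.15 times the lowest with vehicle and 1.14 times with Tributyrin. Between the groups *Ypel3* had a log2 fold change of 0.08 (standard error 0.09, adjusted p = 0.999, edgeR).

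*Tbx6* was barely detected. Its reads numbered 12, 11 and 10 with vehicle and 16, 17 and 18 with Tributyrin, which are normalized read counts of 12.5, 8.5 and 12.4 against 15.0, 15.5 and 20.6. Every Tributyrin mouse was above every vehicle mouse, but the Poisson intervals of the groups overlapped, reaching up to 22.9 in a vehicle mouse and down to 8.55 in a Tributyrin mouse. *Tbx6* had a log2 fold change of 0.62 (standard error 0.36, adjusted p = 0.999, edgeR). The highest mouse was 1.46 times the lowest with vehicle and 1.38 times with Tributyrin.

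*Ppp4c* had normalized read counts of 580.0, 593.2 and 571.5 with vehicle and 548.9, 611.3 and 699.7 with Tributyrin. The Tributyrin mice lay on both sides of the vehicle mice. The highest mouse was 1.04 times the lowest with vehicle and 1.28 times with Tributyrin. Its highest value was in Tributyrin mouse 3, the mouse with the least *Gdpd3*. Its log2 fold change was 0.09 (standard error 0.10, adjusted p = 0.999, edgeR).

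None of the 4 neighbours reached a ratio of 2 between the highest and the lowest mouse in either group. Over all genes tested, such a ratio was found for 6.45% within the vehicle group and for 7.83% within the Tributyrin group, so the neighbours' count of 0 of 4 is near that background. The SD of log2 values of the neighbours lay between 0.03 and 0.30 with vehicle and between 0.06 and 0.25 with Tributyrin. The medians over all genes tested were 0.12 and 0.16. *Mapk3* and *Ppp4c* had a smaller SD than most genes with vehicle, where 6.21% and 5.46% of genes lay below them. *Tbx6* had the largest SD of the 4 in both groups.

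The spread of the neighbours can also be set against counting error alone, as the observed variance over the variance that Poisson counting gives. That ratio lay between 0.21 and 5.17 with vehicle and between 0.54 and 8.91 with Tributyrin. *Tbx6*, at 0.53 and 0.54, varied no more than counting alone gives.

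**Figure D2:**
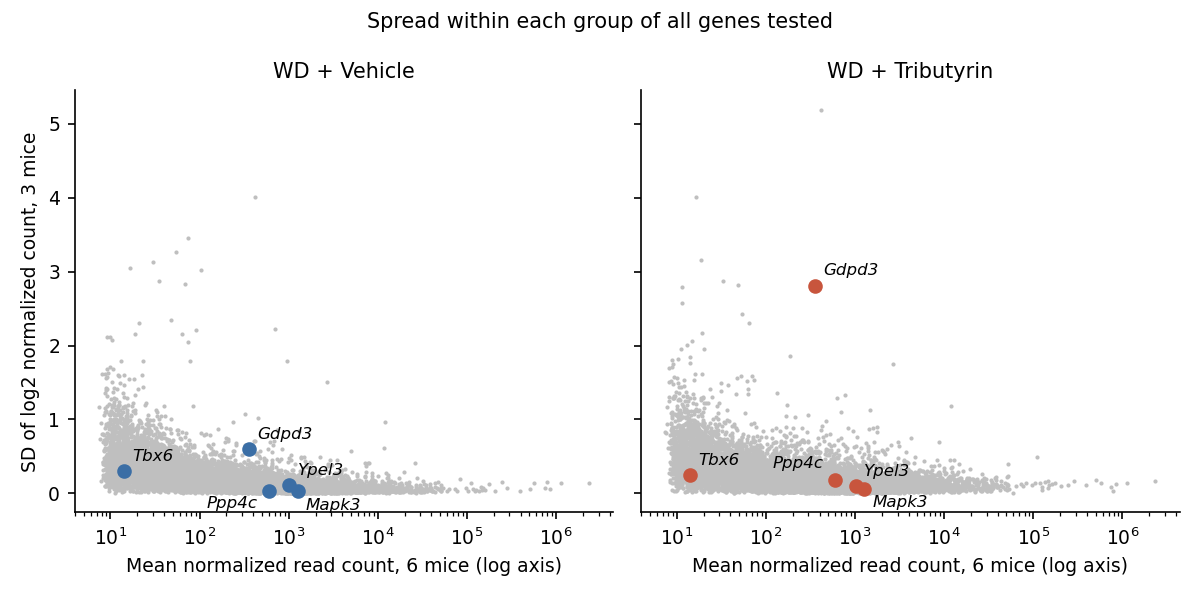
SD of log2 normalized read counts among the 3 mice of a group against the mean normalized read count over 6 mice (log axis) for 14133 genes in grey, with the 5 genes in colour; WD + Vehicle is on the left and WD + Tributyrin on the right. With Tributyrin *Gdpd3*, which was chosen by its values, stands at 2.81, far above genes of like mean count. The other 4 genes lie within the grey cloud.

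Levels of different genes were compared as CPM, the counts scaled to a common library total, per kilobase of exonic length. *Mapk3* and *Ypel3* were the most abundant, with medians over the 6 mice of 21.7 and 20.3. Their ranges, 19.2 to 22.7 and 19.1 to 23.1, overlapped. *Gdpd3* had a median of 6.10 and *Ppp4c* of 5.36, and these did not differ beyond the spread of *Gdpd3*, which ran from 0.17 to 12.6. *Ppp4c* ran from 4.79 to 5.86 and *Tbx6*, at a median of 0.29, from 0.19 to 0.41. The order of the genes therefore depended on the mouse. In vehicle mice 1 and 2 *Gdpd3* was above *Ppp4c*, at 12.6 and 12.5 against 5.15 and 5.46 CPM per kilobase. In Tributyrin mice 2 and 3 it was below *Tbx6*, at 0.22 and 0.17 against 0.33 and 0.41.

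Whether the neighbours followed *Gdpd3* over the 6 mice could not be tested as a correlation. On the log2 scale the mice fell into separate clusters, since the largest gap between neighbouring values of *Gdpd3* took 77.6% of its range. A correlation would then compare Tributyrin mice 2 and 3 with the other 4 mice. The values above are given in its place.

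The region was then widened to 250 kb on either side of the middle of *Gdpd3*, where 50 genes are annotated and counted. Of these, 12 had 0 counts in every library and 24 passed the filter on low counts. Among the 23 tested genes other than *Gdpd3*, 0 had a ratio of 2 or more with vehicle, where 6.45% of all genes did. With Tributyrin it was 1 gene, or 4.35% against the background of 7.83%. That gene was *Sez6l2*, which encodes a seizure-related membrane protein, with normalized read counts of 63.4, 93.0 and 98.1 with vehicle and 36.5, 95.0 and 71.1 with Tributyrin. Its highest Tributyrin mouse was mouse 2, one of those low in *Gdpd3*. The SD of log2 values over the 23 genes had a median of 0.10 with vehicle and 0.18 with Tributyrin, and reached 0.37 and 0.70.

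**Figure D3:**
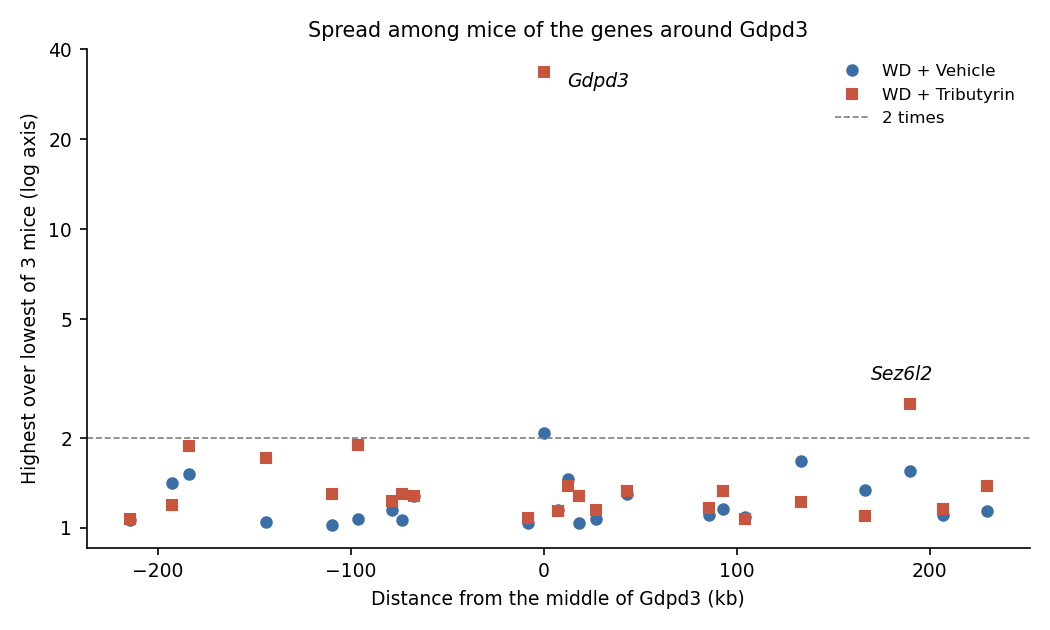
Highest over lowest of the 3 mice of each group (log axis) for the 24 tested genes within 250 kb of *Gdpd3*, against distance from its middle in kb. Blue circles are WD + Vehicle, red squares WD + Tributyrin and the dashed line marks 2 times. *Gdpd3* reaches 33.6 with Tributyrin and 2.09 with vehicle, and *Sez6l2* at 2.61 is the other gene above the line.

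The nearest detected genes beyond the listed neighbours were even too. On the side of *Mapk3* these were *Coro1a*, *Bola2* and *Slx1b*. *Coro1a*, an actin-binding protein of leukocytes, had normalized read counts of 144.5, 155.9 and 185.1 with vehicle and 116.0, 148.0 and 133.1 with Tributyrin. *Bola2*, an iron-sulfur cluster factor, had 226.6, 239.6 and 224.9 with vehicle and 242.2, 210.2 and 273.0 with Tributyrin. *Slx1b*, a subunit of a structure-specific endonuclease, had 80.0, 92.3 and 87.0 with vehicle and 98.2, 87.7 and 107.8 with Tributyrin. Their ratios lay between 1.07 and 1.30 in both groups and the groups overlapped in each. On the side of *Ppp4c*, the glycolytic enzyme gene *Aldoa* had 61989.3, 65933.3 and 61323.3 with vehicle and 59777.5, 63255.0 and 68744.5 with Tributyrin, with ratios of 1.08 and 1.15.

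The group differences of the region were small as well. Log2 fold changes of the 23 genes ran from -0.34 to 0.62 with a median of 0.02, beside a median of -0.001 over all genes tested. Groups did not overlap for 4 of the 23 genes, or 17.4%, against 8.91% of all genes. *Tbx6* and *Kctd13* were higher and *Mapk3* and *Taok2* lower with Tributyrin. With edgeR 0 of the 23 passed an FDR of 10%, where 0% of all genes did, and the lowest adjusted p was 0.999.

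**Figure D4:**
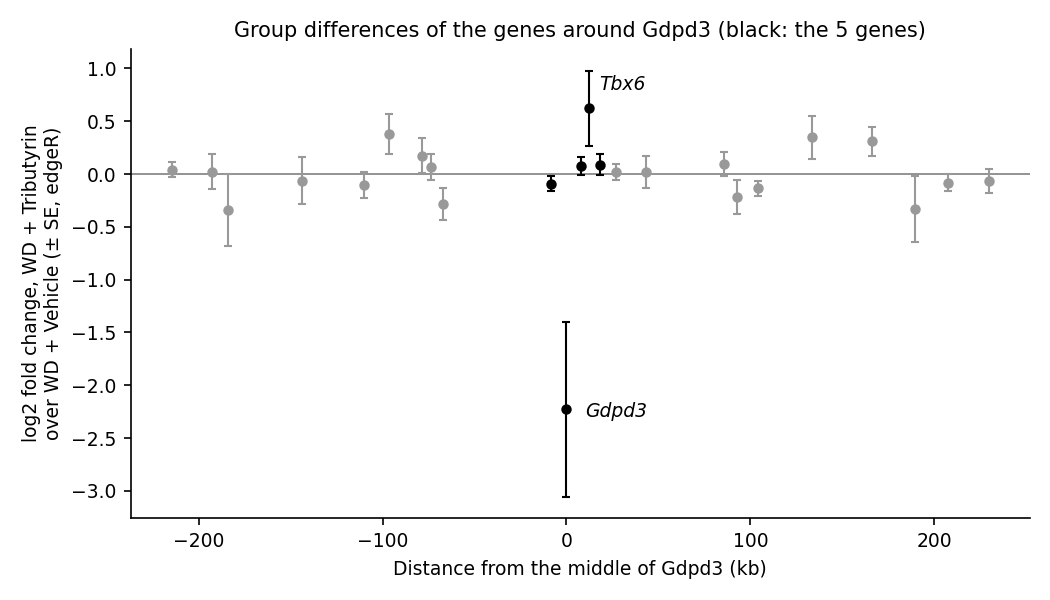
Log2 fold change of WD + Tributyrin over WD + Vehicle with its standard error (edgeR) for the 24 tested genes within 250 kb, against distance from the middle of *Gdpd3* in kb. The standard errors are derived from edgeR's F statistic. The 5 listed genes are black and the rest grey. *Gdpd3* is at -2.23 and the others lie between -0.34 and 0.62.

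The relatives of each gene were even among the mice in most cases, as were most genes tested. A ratio of 2 or more was found for 6.45% of all genes with vehicle and 7.83% with Tributyrin. Of 14 glycerophosphodiesterase and lysophospholipid enzyme genes, 10 were tested, 6 higher and 4 lower with Tributyrin with a median log2 fold change of 0.02, and 0 passed an FDR of 10%. *Gde1* and *Gdpd1*, which encode related phosphodiesterases of lysophospholipid metabolism, had highest ratios of 1.19 and 1.24 in a group and log2 fold changes of 0.14 (standard error 0.09) and 0.04 (0.12). *Gpcpd1*, whose product splits glycerophosphocholine, was the most abundant of the glycerophosphodiesterases per length, at a median of 29.5 CPM per kilobase, with ratios of 1.06 and 1.16. *Enpp2*, which encodes the secreted lysophospholipase D autotaxin, had normalized read counts of 316.0, 282.2 and 333.0 with vehicle and 401.2, 411.2 and 243.2 with Tributyrin. Its groups overlapped. Beside *Gdpd3*, the gene in this list with a ratio of 2 or more was *Ptges*, which encodes a prostaglandin E synthase, at 2.23 with vehicle.

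Of the 5 YPEL genes, 3 were higher and 2 lower with Tributyrin, with a median log2 fold change of 0.08. *Ypel5* did not overlap between the groups, at 902.2, 865.4 and 848.5 normalized read counts with vehicle and 1023.0, 924.7 and 1048.5 with Tributyrin (log2 fold change 0.20, standard error 0.08, adjusted p = 0.999, edgeR). *Ypel1*, at 9.2 to 19.2 normalized read counts, had a ratio of 2.09 with Tributyrin. Of 24 genes of the ERK cascade, 23 were tested, 12 higher and 11 lower with a median of 0.005. None of the 23 reached a ratio of 2 in either group, beside 6.45% of all genes tested with vehicle and 7.83% with Tributyrin. The groups did not overlap for 4 of them, *Mapk3* and *Rps6ka1* lower and *Spry2* and *Fos* higher, where 8.91% of all genes tested did not overlap. *Fos*, an immediate early target, had the largest log2 fold change at 0.52 (standard error 0.25, adjusted p = 0.999, edgeR).

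For protein phosphatase 4, 8 of 10 listed symbols matched a counted gene and 7 genes were tested, 4 higher and 3 lower with a median of 0.04. None of the 7 had a ratio of 2, beside 6.45% of all genes tested with vehicle and 7.83% with Tributyrin. The regulatory subunit genes *Ppp4r1*, *Ppp4r2*, *Ppp4r3a* and *Ppp4r3b* had ratios of at most 1.14. Of 18 T-box symbols, 9 were tested, 3 higher and 6 lower with a median of -0.09. The cardiac factors *Tbx5* and *Tbx20* were at 6.87 and 9.07 CPM per kilobase, far above *Tbx6* at 0.29. *Tbx15* had a ratio of 2.27 with vehicle and 5.54 with Tributyrin and *Tbx1* of 2.71 with vehicle. In these 4 lists too 0 genes passed an FDR of 10% by edgeR.

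Markers of other cell types moved between the mice as well. The 5 atrial markers summed to 4786, 4539 and 1414 normalized read counts with vehicle and to 815, 1687 and 1219 with Tributyrin. Vehicle mice 1 and 2, high in *Gdpd3*, were the highest in this sum and in *Myl7*, *Myl4*, *Sln* and *Mybphl*. Vehicle mouse 3 was the lowest of the 6 mice for those 4 genes, and *Myl7* was at 110.6 there. *Nppa* ran differently and was highest in vehicle mouse 3, at 1046.1, so the order of the sum in the other mice depends on it. All 5 atrial markers were lower with Tributyrin, with a median log2 fold change of -1.94, 0 of them past an FDR of 10%. Each had a ratio of 2 or more within both groups, where 6.45% of all genes tested did with vehicle and 7.83% with Tributyrin. The 5 smooth muscle and pericyte markers summed to 18220, 18630 and 16940 with vehicle and to 17990, 20360 and 21580 with Tributyrin. The Tributyrin mice low in *Gdpd3* were the highest in this sum and in *Myh11*, but the other markers did not share that order. *Acta2* was as high in vehicle mouse 2, at 3884.8, as in Tributyrin mouse 2, at 3875.9. *Rgs5* was lower in Tributyrin mouse 2, at 13659.0, than in vehicle mouse 1, at 13908.3. *Tagln* was highest in vehicle mouse 1, at 23.9, and *Kcnj8* was lowest in Tributyrin mouse 2, at 883.6. The 5 erythroid markers summed to 14330, 12910 and 18290 with vehicle and to 24730, 10040 and 13230 with Tributyrin. Each erythroid marker had a ratio of 2 or more with Tributyrin, where 7.83% of all genes tested did. In that group mouse 1 was high and mice 2 and 3 low, as in *Gdpd3*. Among the vehicle mice, mouse 3, the lowest in *Gdpd3*, was the highest. The skeletal muscle list, of which *Acta1* and *Ckm* were tested, summed to 39000, 62660 and 38720 with vehicle and to 31080, 36020 and 45190 with Tributyrin, and *Acta1* was highest in vehicle mouse 2, at 30672.2. The part of these markers in the values of *Gdpd3* was not tested, and in heart tissue fewer cells of a type and less RNA per cell cannot be told apart. The sums of the 5 fibroblast, 5 endothelial and 5 macrophage markers overlapped between the groups, as did the sums above. *Dcn* made up most of the fibroblast sum. Of the fibroblast markers 4 were lower and 1 higher with Tributyrin, with a median log2 fold change of -0.30. *Lum* did not overlap, at 1565.3, 1833.1 and 1657.3 with vehicle and 1310.1, 1377.0 and 1391.5 with Tributyrin. Of all genes tested 8.91% did not. The endothelial markers were 2 higher and 3 lower, and the macrophage markers 5 lower. None of these genes passed an FDR of 10%.

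Genes were last ranked by how closely they followed *Gdpd3* over the 6 mice, with Pearson's r of log2 values as the measure of likeness. Since the mice fall into clusters, r serves only to order the genes, and the points share the size factor of each library. Of the other 14132 genes, 135, or 0.955%, had an r past 0.9 in either direction. The most alike were *Phactr1* (r = 0.997), *Chfr* (0.996), *Gm10167* (0.993), *Tbc1d22b* (0.988) and *Med12l* (0.987). Among the 5 most opposite were *Gzmm* (-0.982), *Cnn1* (-0.975), *Zfp78* (-0.972) and *Cops7b* (-0.970). Of the genes named here, only *Zfp78* lies on chromosome 7, and it begins at 6363280, at the other end of the chromosome.

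The likeness was mostly one of order and not of size. *Phactr1* had normalized read counts of 291.0, 280.7 and 273.3 with vehicle and 269.3, 213.8 and 211.1 with Tributyrin, so its highest mouse was 1.38 times its lowest, where that of *Gdpd3* was 70.1 times. *Gm10167*, a processed pseudogene on chromosome 5, was the exception. Its normalized read counts were 118.5, 117.9 and 65.8 with vehicle and 57.0, 11.9 and 10.3 with Tributyrin. As a share of the highest mouse these are 100%, 99.5% and 55.6% with vehicle, 48.1% in Tributyrin mouse 1 and 8.71% in Tributyrin mouse 3. The highest mouse was 11.5 times the lowest, and of the 135 genes past 0.9 it was the 1 with a ratio of at least 4 over the mice. *Cnn1*, which encodes the smooth muscle protein calponin, had the largest range of the opposite genes named, from 55.1 in vehicle mouse 1 to 136.5 in Tributyrin mouse 3.

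**Figure D5:**
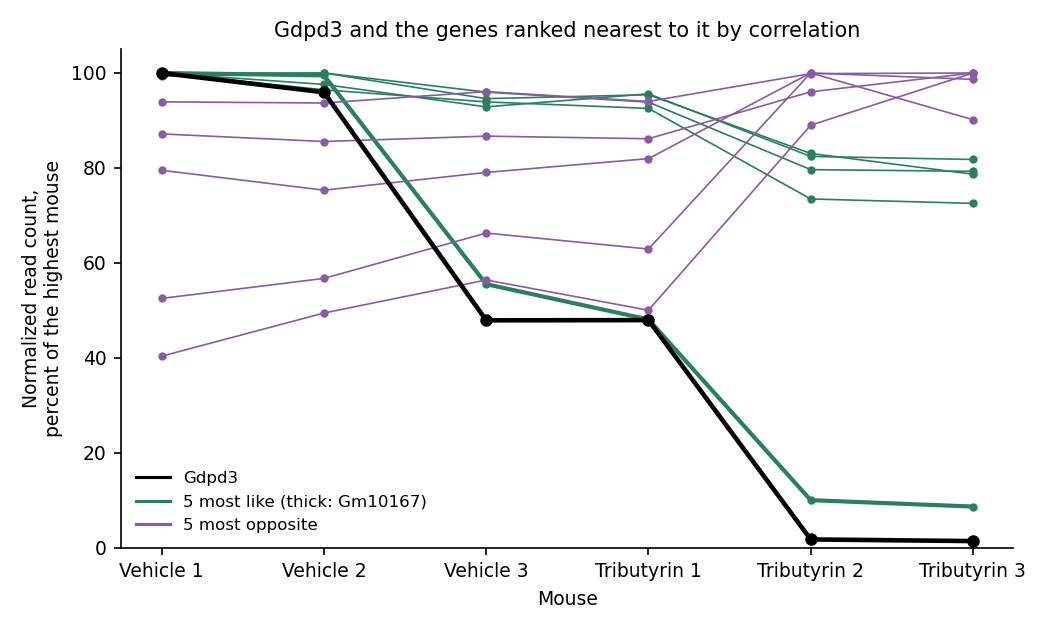
Normalized read count as a percent of the highest mouse for *Gdpd3* (black), the 5 genes most like it (green, *Gm10167* thick) and the 5 most opposite (purple) in each mouse; lines only join the values of 1 gene. *Gdpd3* and *Gm10167* step down from 100% to 1.43% and 8.71%, and the other green lines end above 70%.

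*Gm10167* (ENSMUSG00000066554) spans chromosome 5 from 148182899 to 148184377 on the minus strand. A processed pseudogene can share reads with near-identical copies, so its level is uncertain. Between the groups it had a log2 fold change of -1.91 with a standard error of 0.51.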

How the data were processed

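Per the methods and the labels, RNA was extracted from heart ventricle, libraries were made with a stranded mRNA kit and reads of 50 bases were single-end. The authors trimmed adapters (cutadapt 1.13 in the processing notes), aligned with STAR to mm10 and counted with HTSeq 0.6.1p1. The deposited values are raw counts per Ensembl gene, with no normalization, and the annotation release of the counting is not given in the sources used here. All 6 libraries were grouped by their titles.

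Of 54232 identifiers, 54079 matched GENCODE M21, which gave symbols, positions and exonic lengths. Normalized read counts are counts divided by DESeq2 size factors. Groups were compared with edgeR 4.0.16 (R 4.3.3) by the quasi-likelihood test with TMM scaling, filterByExpr (min.count 10, min.total.count 15). P-values were adjusted by Benjamini-Hochberg over 14133 genes, at an FDR of 10%. The quasi-likelihood test gives no standard error. Those given for edgeR are the size of the log2 fold change over the square root of the F statistic. The alternatives used DESeq2 1.42.0 and limma 3.58.1. Spread was the SD of log2(normalized count + 0.5), and a ratio of at least 2 was counted as wide. Intervals are exact 95% Poisson intervals. The edgeR step was tested on simulated data. Positions and plots used Python 3.11.15 and matplotlib 3.10.9.

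The 5 genes, the window of 250 kb and the lists were chosen with earlier results of these data known. Named are the 5 genes, the 4 nearest detected genes on either side, genes of the window with a ratio of at least 2, and the 5 genes most like and 5 most opposite *Gdpd3*. Members of the lists, *Kctd13*, *Taok2*, *Gm9967* and *Sult1a1* were named after their values were seen. Some genes that the rule would name are not reported here. Alternatives were other scalings, filters, pseudocounts and models, the replicate block and each mouse left out.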

Additional observations from a re-analysis of the deposited data

How the results depend on the processing

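At an FDR of 10%, 3 other scalings and a filter on a mean CPM of 5 left 0 genes with edgeR, as did limma-voom. There were 167 with no filter on low counts and 11 by DESeq2, where *Gdpd3* has no p. With each mouse left out the count ran from 0 to 3. The log2 fold change of *Gdpd3* was negative in every alternative. With no filter on low counts it was -2.22, with a standard error of 0.13 against 0.83 with the filter. Both errors are derived from the F statistic, and the cause of their difference was not tested. By limma-voom the log2 fold change was -3.87. With each mouse left out it ran from -5.64, without Tributyrin mouse 1, to -1.68. *Gdpd3* is among the genes counted as past 10% with no filter and without Tributyrin mouse 1, which is a description, since it was chosen by its values.

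The replicate numbers do not show a pairing, since same-numbered mice deviated together with correlations of 0.214, 0.037 and 0.015. With the replicate block 2 genes passed 10%, and *Gdpd3* was at -2.97. The neighbours kept their direction and did not pass 10% in the alternatives run, but DESeq2 gave *Tbx6* no adjusted p. Their log2 fold changes ran from -0.16 to -0.05 for *Mapk3*, 0.006 to 0.14 for *Ypel3*, 0.44 to 0.73 for *Tbx6* and 0.002 to 0.18 for *Ppp4c*. A mean CPM of 5 removed *Tbx6*, which has no value there. The SD of log2 values of *Gdpd3* ran from 0.21 to 3.54 with Tributyrin and from 0.04 to 0.75 with vehicle, the lowest each time with 1 mouse left out, and that of the neighbours stayed at or under 0.37. The r of each neighbour with *Gdpd3* was computed only as part of the ranking of all genes, and it is neither given nor tested. No alternatives were run for it or for the ranking of genes by r. With 3 mice a group, 1 mouse decides the spread of *Gdpd3*. *Tbx6* rests on 10 to 18 reads a library.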

Other observations

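Of the 99 other tested genes within 2 Mb of *Gdpd3*, 3, or 3.03%, had an r with it past 0.9 in either direction. Over all genes that share was 0.955%. *Pycard* ends at 127993867 and *Trim72* begins at 128003949, so they lie close together and are not separate parts of the region. The 3 genes, *Trim72*, *Pycard* and *Cd2bp2*, were picked by that r. An order like or opposite to that of *Gdpd3* was therefore fixed by the choice, and the 3 genes are given as values only. *Trim72*, which encodes the membrane repair protein MG53, begins 1238 kb after the start of *Gdpd3*. Its normalized read counts were 3259.6, 4087.2 and 4881.3 with vehicle and 4813.8, 6588.7 and 7060.5 with Tributyrin. It was lowest in vehicle mouse 1, alike in vehicle mouse 3 and Tributyrin mouse 1, and highest in Tributyrin mice 2 and 3, the reverse of the order of *Gdpd3*. Its log2 fold change was 0.60 (standard error 0.16).

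*Pycard*, which encodes the inflammasome adaptor ASC, begins 1223 kb after the start of *Gdpd3*. Its normalized read counts were 34.3, 49.6 and 75.8 with vehicle and 59.8, 107.8 and 134.2 with Tributyrin. Tributyrin mice 2 and 3 were again the highest. For *Pycard* the log2 fold change was 0.93 (standard error 0.33). *Cd2bp2*, which encodes a splicing factor, begins 425 kb after the start of *Gdpd3* and ran from 911.9 in Tributyrin mouse 2 to 1019.7 in vehicle mouse 1, a narrow range.

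Within the window of 250 kb, *Sult1a1*, a phenol sulfotransferase gene, had normalized read counts of 725.5, 778.5 and 769.0 with vehicle and 717.2, 884.5 and 1362.8 with Tributyrin. Its high value was in Tributyrin mouse 3, which had the least *Gdpd3*, and its ratio within the group was 1.90. *Sult1a1* too was picked after its values were seen. For *Trim72*, *Pycard*, *Cd2bp2* and *Sult1a1* edgeR's adjusted p was 0.999.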
